A study of Mus musculus with 2 samples.

Results

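The genes described here are 114 mouse genes in which 1 promoter supplied a clearly different share of the gene's RNA before and after retinoic acid differentiation of embryonic stem (ES) cells. They were chosen from a promoter table of 55830 rows and 34126 gene symbols, in which a row is a group of transcripts with a common first exon. A gene had to have at least 2 promoter rows, which held for 10189 genes, and a summed level of at least 5 RPKM in both libraries, which left 4579 genes. It was kept when the share of 1 row in the gene's sum differed by at least 30 percentage points, with the same sign, in all 4 pairings of a differentiated with an undifferentiated sequencing lane. The 114 members are 2.49% of those 4579 genes. The shares and levels of these lanes chose the members, so they are given as a description and carry no test.

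The differentiated sample was a mixed cell population obtained from E14 ES cells (strain 129P2/OlaHsd, passage 29) after 4.5 days on gelatin with all-trans retinoic acid at 0.1 µM and 10% serum, without feeder cells. The undifferentiated sample was the same line at the same passage, kept with leukemia inhibitory factor and 15% serum on mitomycin C treated embryonic fibroblasts. The fibroblasts were removed by adsorption before differentiation and before collection, with a residue put by the submitters below 0.25%, and about 8% of the differentiated and 2% of the undifferentiated cells were dead at collection. Each condition is 1 library, made from 5 µg of total RNA with fragments of about 250 bp and read in 2 lanes with 36 bp single-end reads. Retinoic acid, leukemia inhibitory factor, serum, feeders and time therefore cannot be told apart. Neither can the condition and the single culture that stands for it.

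Many mammalian genes have several promoters, each joined to its own first exon, and the choice between them can alter the start of the protein or leave the protein intact and alter only the leader of the mRNA. Promoters rich in CpG dinucleotides tend to be active in many cell types, and promoters poor in CpG tend to be more restricted. Retinoic acid acts through retinoic acid receptors, nuclear receptors that bind DNA as partners of retinoid X receptors, and it directs ES cells away from self-renewal.

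The libraries matched their labels. The 7 ES cell markers summed to 319.5 RPKM in differentiated and 3734 RPKM in undifferentiated cells, and the 7 markers of retinoic acid treated cells summed to 2279 RPKM in differentiated and 16.5 RPKM in undifferentiated cells. The 7 fibroblast markers summed to 225.0 RPKM in differentiated and 29.5 RPKM in undifferentiated cells. None of the fibroblast markers was at 0, and Col1a1, Col1a2, Col3a1 and Dcn were at least 2-fold higher in differentiated cells. Thy1, Postn and Lum were lower there, at 2.13, 1.63 and 0.053 RPKM against 3.43, 2.69 and 0.0921 RPKM in undifferentiated cells. The part of fibroblasts in the switches was not tested. In bulk RNA, fewer cells of a type and less RNA per cell cannot be told apart. The step between neighbouring low values implied 33000000 and 32000000 reads in the differentiated lanes and 37700000 and 36100000 in the undifferentiated lanes, which makes 1 RPKM over 1 kb equal to 32 to 37.7 reads per lane.

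The size of the lane disagreement sets how the switches are to be read. The 2 lanes of the differentiated library, which come from the same RNA, themselves differed by at least 30 points in a promoter share in 337 genes (7.36%). The 2 undifferentiated lanes did so in 327 genes (7.14%). Lane 1 of the differentiated against lane 1 of the undifferentiated library gave 413 genes (9.02%), lane 2 against lane 2 gave 415 (9.06%), and the library averages gave 207 (4.52%). A difference of 30 points in a single pair of lanes was therefore nearly as frequent within a library as between the libraries, and only the requirement of all 4 pairings brought the number to 114. Of the genes with discordant lanes, 144 of 337 in the differentiated and 149 of 327 in the undifferentiated library had a row listed at 0 in a lane. Transcripts of a gene have exons in common, and how reads from those exons were divided among promoters is not stated in the sources used here.

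**Figure D1:**
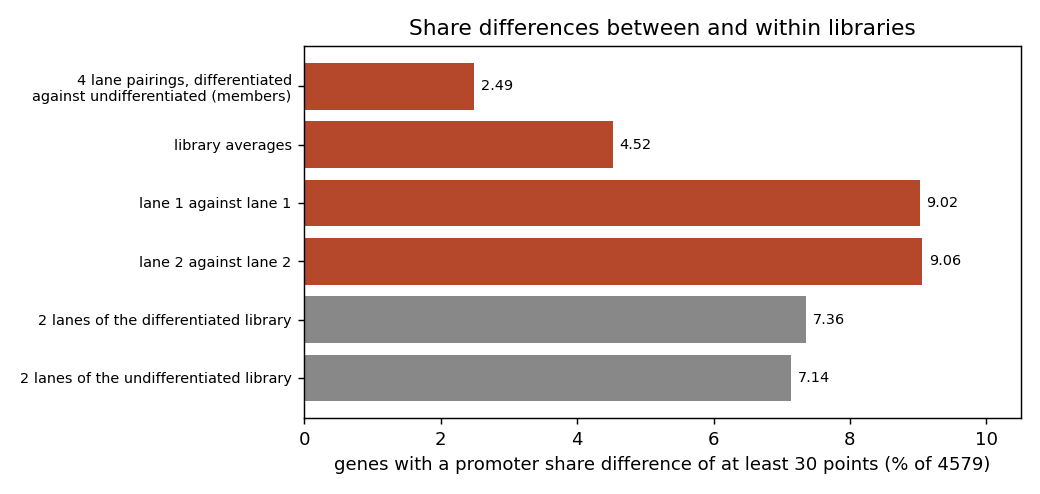
Genes with a promoter share difference of at least 30 percentage points, as a percentage of the 4579 genes with 2 or more promoter rows and at least 5 RPKM in both libraries (x axis), for 4 comparisons between the libraries (red) and 2 between lanes of 1 library (grey). The all-pairings rule gave 2.49%, and the lanes within a library gave 7.36% and 7.14%.

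Among the members, the largest difference between lanes of a library had a median of 3.65 points in differentiated and 4.25 points in undifferentiated cells, against 3.19 and 3.28 points over all 4579 genes. In 78 members the lanes lay within 10 points of each other in both libraries. The same held for 2932 of all genes, of which those members are 2.66%. In 8 members the lanes of at least 1 library differed by 30 points or more, against 560 of all 4579 genes (12.2%). The all-pairings rule acts on lane differences, so nothing is read from this contrast. The 8 members were Amdhd2, Ccl27b, Chd3, Epn2, Hook1, Il11ra2, Npr1 and Strada, named after their values were seen.

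In each member the row with the largest share increase in differentiated cells is called the gaining promoter and the row with the largest decrease the losing promoter. The clearest cases are genes in which both promoters begin an mRNA with a RefSeq identifier, since both starts are then documented outside this study. There were 7 such members (6.14%), against 243 of all 4579 genes (5.31%): Rarg, Tpm1, Ltbp1, Lima1, Sirt6, Fbrsl1 and Ccl27b. Of these, Lima1, Sirt6, Fbrsl1 and Ccl27b were named after their values were seen.

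Rarg encodes retinoic acid receptor gamma, whose 2 main isoforms differ at the amino end because they start from different promoters. The upstream promoter, whose first exon lies at chr15:102087670-102087947 on the minus strand (mm9), starts the gamma 1 form, and the downstream promoter, at chr15:102076490-102076930, starts the gamma 2 form. The gamma 1 promoter stood at 8.49 and 8.08 RPKM in the differentiated lanes and at 16.6 and 15.5 RPKM in the undifferentiated lanes. The gamma 2 promoter stood at 4.09 and 3.36 RPKM in the differentiated lanes and at 31.3 and 31.4 RPKM in the undifferentiated lanes. Both promoters were thus lower in differentiated cells, the downstream one by far the more, and the lanes of the libraries did not overlap for either. The gamma 1 promoter held 66.5% and 69.1% of the Rarg sum in differentiated and 33.3% and 32% in undifferentiated lanes, so the leading promoter was a different one in each library. The Rarg sum was 12.2 RPKM in differentiated and 49.2 RPKM in undifferentiated cells, a log2 ratio of -1.92 after adding 1 RPKM to each, the scale of every log2 ratio here. The Rarg promoters lie 11017 bp apart. With 1 RPKM added to every row, the smallest Rarg difference was 29.4 points, just under the threshold of 30.

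The 200 bases before each Rarg start are shown because the bases differ plainly between the promoters although their CpG number does not. They are from RefSeq windows on GRCm38.p6, chr15:102257523-102257722 and chr15:102246501-102246700, minus strand, and capitals mark CpG. The upstream stretch has 10 CpG in 76.5% G and C, and the downstream one has 10 CpG in 55.5%.
Rarg gaining: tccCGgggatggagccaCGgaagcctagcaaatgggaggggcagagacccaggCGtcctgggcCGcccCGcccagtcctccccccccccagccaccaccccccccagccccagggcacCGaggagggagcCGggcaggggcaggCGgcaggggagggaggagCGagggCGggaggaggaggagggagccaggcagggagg
Rarg losing: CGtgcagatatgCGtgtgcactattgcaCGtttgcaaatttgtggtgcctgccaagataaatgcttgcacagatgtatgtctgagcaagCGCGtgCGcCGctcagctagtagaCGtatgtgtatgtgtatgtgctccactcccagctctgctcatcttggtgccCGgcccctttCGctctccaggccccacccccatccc

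Tpm1, a tropomyosin that winds along actin filaments, has an upstream promoter for long forms and an internal promoter for short forms. The upstream promoter (chr9:66896825-66897212, minus strand) stood at 602.5 and 596.9 RPKM in the differentiated lanes and at 12.7 and 12.9 RPKM in the undifferentiated lanes. The internal promoter (chr9:66891384-66891768), 5444 bp downstream, stood at 272.7 and 271.1 RPKM in differentiated and at 27 and 22.9 RPKM in undifferentiated lanes. Both promoters were far higher in differentiated cells, and the long-form promoter more so. Its share was 67.8% in each differentiated lane, and 30.4% and 34% in the undifferentiated lanes, with a log2 ratio of the Tpm1 sum of 4.44.

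Ltbp1 encodes a matrix protein that holds latent TGF-beta, in a long form from an upstream promoter and a short form from a downstream one. The downstream promoter (chr17:75578149-75578543, plus strand) stood at 22 and 17.7 RPKM in the differentiated and at 0.43 and 0.657 RPKM in the undifferentiated lanes. The upstream promoter (chr17:75404868-75405700), 173281 bp away, stood at 17.5 and 19.4 RPKM in the differentiated and at 6.03 and 6.25 RPKM in the undifferentiated lanes. Both promoters were higher in differentiated cells, in which they were used about equally, whereas the long-form promoter held 93% and 89.8% of the sum in undifferentiated lanes. The log2 ratio of the Ltbp1 sum was 2.41, and with 1 RPKM added to every row the smallest Ltbp1 difference was 27.5 points.

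The stretches before the Ltbp1 starts are printed because this was the member with RefSeq mRNAs at both starts whose promoters lie farthest apart. They are RefSeq windows on GRCm38.p6, chr17:75178581-75178780 and chr17:75005329-75005528, plus strand, with CpG in capitals, 6 before the downstream and 10 before the upstream start.
Ltbp1 gaining: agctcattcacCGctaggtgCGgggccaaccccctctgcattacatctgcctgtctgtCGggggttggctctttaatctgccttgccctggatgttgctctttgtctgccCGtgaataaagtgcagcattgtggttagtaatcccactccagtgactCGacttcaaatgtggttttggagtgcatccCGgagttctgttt
Ltbp1 losing: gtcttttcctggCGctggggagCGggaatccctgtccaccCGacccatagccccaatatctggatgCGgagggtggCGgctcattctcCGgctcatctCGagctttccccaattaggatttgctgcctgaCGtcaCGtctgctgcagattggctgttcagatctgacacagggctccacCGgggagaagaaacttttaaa

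Lima1 encodes the actin-bundling protein EPLIN, with a short form from the downstream promoter. That promoter (chr15:99649924-99650572, minus strand) stood at 33.2 and 33.9 RPKM in differentiated and at 1.72 and 2.32 RPKM in undifferentiated lanes. The upstream promoter (chr15:99705763-99705886) stood at 18.4 and 17.9 RPKM in differentiated and at 39.9 and 40.2 RPKM in undifferentiated lanes. Here the 2 promoters differed in opposite directions with close lanes, and the Lima1 sum was within 2-fold between the libraries, at 55.1 RPKM in differentiated and 44.6 RPKM in undifferentiated cells.

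Sirt6, a chromatin deacylase, showed the same crossing over a distance of only 475 bp. Its downstream promoter stood at 11.2 and 9.16 RPKM in differentiated and at 2.4 and 3.4 RPKM in undifferentiated lanes. Its upstream promoter stood at 4.4 and 5.41 RPKM in differentiated and at 7.54 and 8.69 RPKM in undifferentiated lanes. The lanes did not overlap, though first exons this close are hard to separate with short reads.

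Fbrsl1, a relative of the neurodevelopmental gene Auts2, had its losing promoter at 6.78 and 7.36 RPKM in differentiated and at 58.1 and 61.9 RPKM in undifferentiated lanes. Its gaining promoter, 61376 bp downstream, stood at 4.76 and 4.24 RPKM in differentiated lanes and was listed at 0 in both undifferentiated lanes. The share of this downstream promoter therefore came with a Fbrsl1 sum that was lower in differentiated cells, at 11.6 RPKM against 60.0 RPKM in undifferentiated cells. The losing promoter of Ccl27b, a chemokine gene in a repeated cluster of near-identical copies, stood at 2.25 and 1.31 RPKM in differentiated lanes and at 98.5 and 3.6 RPKM in undifferentiated lanes. The undifferentiated lanes of 1 library thus disagreed by more than the libraries did, and the Ccl27b switch is uncertain.

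**Figure D2:**
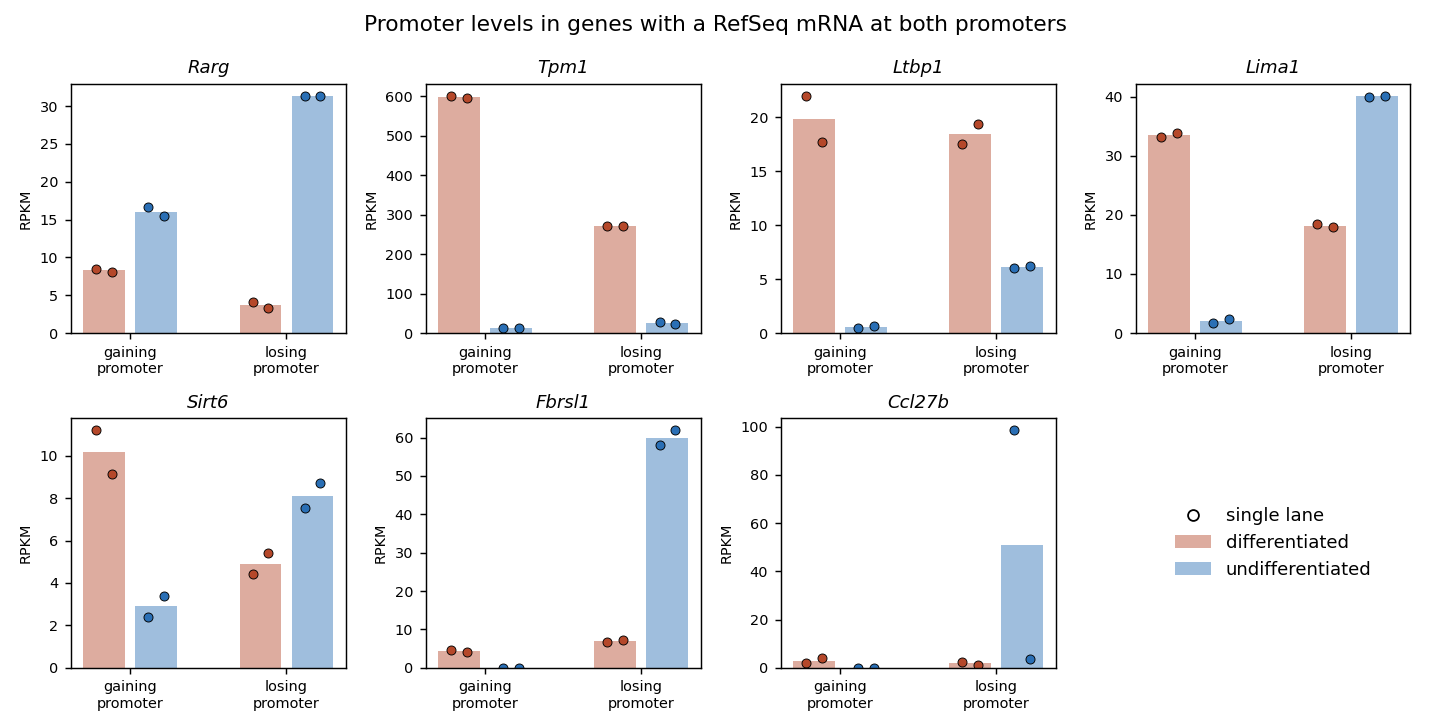
RPKM (y axis, its own scale in each panel) of the gaining and losing promoter of the 7 members with a RefSeq mRNA at both, in differentiated (red) and undifferentiated cells (blue). Bars are library means and points are single lanes of 1 library. In Rarg both promoters are lower in differentiated cells, in Tpm1 and Ltbp1 both are higher, and in Lima1 and Sirt6 the promoters cross, while the Ccl27b lanes at 98.5 and 3.6 RPKM disagree.

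The smallest share difference over the 4 lane pairings had a median of 37.9 points over the 114 members and a maximum of 91.9 points. It was 50 points or more in 21 members, 40 to 50 in 26 and 30 to 40 in 67. The promoter with the highest level differed between the libraries in 76 members (66.7%), against 422 of all 4579 genes (9.22%), a contrast that the choice of members makes. The members hold 506 promoter rows, of which 184 passed the threshold. Both a gaining and a losing row passed in 67 members, only a gaining row in 24 and only a losing row in 23.

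The largest difference was in Wdr92, which encodes a WD repeat protein bound to a chaperone complex. Its upstream promoter (chr11:17082109-17082148, plus strand) held 100% of the sum in both differentiated lanes, at 11.6 and 10.3 RPKM, and 5.56% and 8.08% in the undifferentiated lanes, at 0.532 and 0.806 RPKM. The losing promoter, 29786 bp downstream, was listed at 0 in both differentiated lanes and stood at 9.04 and 9.17 RPKM in the undifferentiated lanes. The Wdr92 sum hardly differed, 10.9 RPKM in differentiated and 9.77 RPKM in undifferentiated cells. Its upstream first exon is only 40 bp long and lies inside the model of Ppp3r1, so reads of the 2 genes cannot be told apart there. The upstream Wdr92 row matched only a GENCODE processed transcript, whereas the losing row has a RefSeq mRNA.

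Cbx7, the chromodomain subunit that brings Polycomb complexes to methylated histone H3 and the main such subunit of ES cells, showed the second largest difference. An upstream promoter (chr15:79801298-79801548, minus strand) stood at 59.6 and 62.4 RPKM in the differentiated lanes and was listed at 0 in both undifferentiated lanes. The promoter 38467 bp downstream (chr15:79762877-79763081), which has a RefSeq mRNA, stood at 10.2 and 10 RPKM in the differentiated and at 37.1 and 35.4 RPKM in the undifferentiated lanes. The Cbx7 sum was higher in differentiated cells, 71.2 RPKM against 36.4 RPKM in undifferentiated cells, and all of that excess lay in the upstream promoter.

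Fbxo11, a substrate receptor of a ubiquitin ligase, had an upstream promoter at 12.6 and 12.1 RPKM in differentiated lanes that was listed at 0 in both undifferentiated lanes. Its losing promoter, 56595 bp downstream, stood at 3.51 and 3.62 RPKM in differentiated and at 6.32 and 6.63 RPKM in undifferentiated lanes. As in Cbx7, the upstream promoter was listed above 0 in differentiated lanes alone and the downstream one was lower there. The upstream Fbxo11 row has a RefSeq mRNA, whereas the losing row matched only a GENCODE transcript marked for nonsense-mediated decay. How reads were divided between the Fbxo11 rows is not stated, so the listed 0 need not mean that the promoter was silent. Lrrfip1, which encodes a nucleic acid binding protein, had its upstream promoter at 21 and 19 RPKM in differentiated and at 0.829 and 0.921 RPKM in undifferentiated lanes. The Lrrfip1 promoter 112486 bp downstream stood at 7.33 and 5.79 RPKM in differentiated and at 15.7 and 16.2 RPKM in undifferentiated lanes. That downstream row matched no GENCODE transcript, whereas the upstream Lrrfip1 row has a RefSeq mRNA.

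Gapdh, the glycolytic enzyme often used as a loading standard, was a member in which the main promoter was far lower and a minor one within 2-fold, though higher, in differentiated cells. The main promoter (chr6:125115569-125115790, minus strand) stood at 17.7 and 21.9 RPKM in differentiated and at 786.1 and 813.3 RPKM in undifferentiated lanes. A row 3246 bp downstream stood at 44.8 and 57.1 RPKM in differentiated and at 30.4 and 27.1 RPKM in undifferentiated lanes. Gapdh has many processed pseudogenes that can take the same reads, and the downstream row matches a GENCODE transcript with a retained intron, so this switch and the log2 ratio of -3.53 in the Gapdh sum are uncertain.

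Srsf4, an SR protein of splicing, had a losing promoter at 1.97 and 0.228 RPKM in differentiated and at 34.5 and 35.7 RPKM in undifferentiated lanes. Its gaining promoter, 12449 bp upstream, stood at 17.4 and 17.1 RPKM in differentiated and at 4.66 and 4.17 RPKM in undifferentiated lanes. Rfc5, a subunit of the clamp loader of DNA replication, had a losing promoter at 7.05 and 8.8 RPKM in differentiated and at 85.5 and 86.5 RPKM in undifferentiated lanes. The Rfc5 row 8196 bp downstream stood at 21.5 and 16.1 RPKM in differentiated lanes and was listed at 0 in the undifferentiated lanes. In both genes 1 row was given most of the undifferentiated sum and a minor part of the differentiated sum. The gaining rows of Srsf4 and Rfc5 matched only GENCODE transcripts with a retained intron, and the losing Srsf4 row matched none, so these switches are uncertain. Rrp1b, a nucleolar protein of ribosomal RNA processing, passed by its losing row alone, which stood at 0.702 and 0.714 RPKM in differentiated and at 33.5 and 33.9 RPKM in undifferentiated lanes. The remaining Rrp1b sum was spread over several of its 9 rows, and the most raised of them held 24.2% and 26.8% in differentiated and 2.92% and 2.11% in undifferentiated lanes. That row matched a GENCODE transcript with a retained intron and the losing Rrp1b row a processed transcript, so neither has a protein-coding match.

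Ormdl2, an endoplasmic reticulum protein that restrains sphingolipid synthesis, had its upstream promoter at similar levels, 11.8 and 11.3 RPKM in differentiated and 11.5 and 7.59 RPKM in undifferentiated lanes. Its downstream promoter was listed at 0 in both differentiated lanes and stood at 17.8 and 20.4 RPKM in the undifferentiated lanes. The Ormdl2 difference thus lay in the downstream promoter, 1197 bp from the other. That downstream row matched no GENCODE transcript, whereas the upstream Ormdl2 row has a RefSeq mRNA. Ppp2r5c, a regulatory subunit of protein phosphatase 2A, had its gaining promoter at 42.9 and 43.2 RPKM in differentiated and at 16.8 and 13.9 RPKM in undifferentiated lanes. Its losing promoter was listed at 0 in the differentiated lanes and stood at 24.9 and 21.6 RPKM in the undifferentiated lanes. The table places these Ppp2r5c rows 583338 bp apart, and only the losing one matched a GENCODE transcript.

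Zdbf2, an imprinted gene expressed from the paternal allele, had its gaining promoter at 21.9 and 22 RPKM in the differentiated lanes and at 0 in the listing of both undifferentiated lanes. Its other promoter, 17473 bp upstream, was within 2-fold, with 15.3 and 14.9 RPKM in differentiated and 11.1 and 11.2 RPKM in undifferentiated lanes. The Zdbf2 difference therefore lay mostly in the downstream promoter. Myo6, a myosin that moves towards the minus end of actin filaments, had its gaining promoter at 13.1 and 12.3 RPKM in differentiated and at 1.09 and 0.331 RPKM in undifferentiated lanes. The losing Myo6 promoter, 25453 bp downstream, was listed at 0 in differentiated lanes and stood at 7.09 and 2.44 RPKM in undifferentiated lanes. The levels of these undifferentiated lanes differed, but their shares, 66.3% and 58.4%, were close. The gaining Myo6 row matched no GENCODE transcript. The losing row matched only a transcript with a retained intron, so the Myo6 switch is uncertain. Garnl3, which encodes a protein with a GTPase-activating domain, had a gaining promoter at 4.85 and 3.57 RPKM in differentiated lanes that was listed at 0 in undifferentiated lanes. At these low levels, adding 1 RPKM to every row brought the smallest Garnl3 difference to 27.7 points. The losing Garnl3 row matched only a GENCODE processed transcript.

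The genes listed as 1300010F03Rik and 1810031K17Rik complete the 15 largest. In GENCODE the matched rows of these belong to Vwa8 and Cnppd1. The downstream promoter of 1300010F03Rik stood at 13.5 and 5.09 RPKM in differentiated lanes and was listed at 0 in undifferentiated lanes, while its upstream promoter stood at 6.83 and 2.68 RPKM in differentiated and at 6.12 and 5.34 RPKM in undifferentiated lanes. The differentiated lanes of 1300010F03Rik differed more than 2-fold in level but gave nearly equal shares, 66.4% and 65.5%. In 1810031K17Rik the gaining row held 41.6% and 52.3% in differentiated and 0.643% and 7.11% in undifferentiated lanes.

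**Figure D3:**
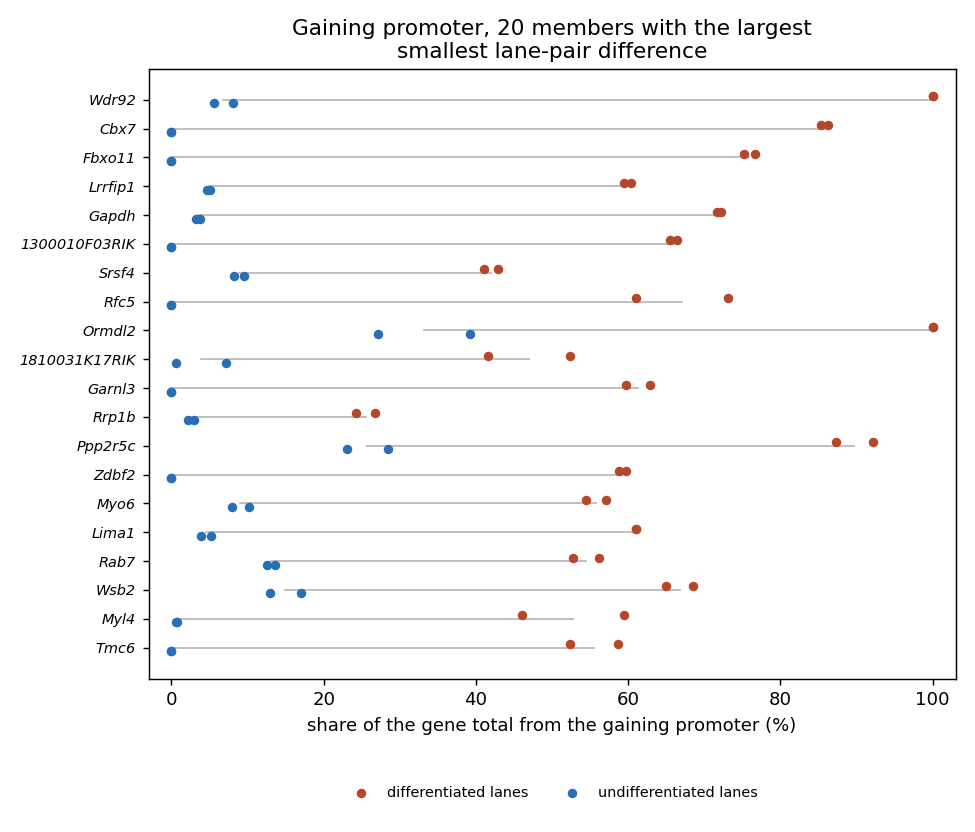
Share of the gene's summed RPKM (x axis, %) that came from the gaining promoter in each differentiated (red) and undifferentiated lane (blue), for the 20 members with the largest smallest difference over the lane pairings; the line joins the library means. Lanes of 1 library lie close together in most of these genes, with Myl4, at 59.5% and 46.1% in differentiated lanes, among the exceptions; genes such as Srsf4 and Rrp1b rank high by their losing row, which is not drawn.

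The switches were of several kinds when levels in place of shares were compared at a fold of 2 on library means. In 52 members the gaining promoter was higher and the losing promoter lower in differentiated cells. In 40 the gaining promoter was higher and the losing one within 2-fold, and in 18 the losing promoter was lower and the gaining one within 2-fold. Both promoters were higher in Ilk, Ltbp1 and Tpm1, and both were lower in Gm13051. Ilk, an integrin-linked kinase named after its values were seen, had its gaining promoter at 66.2 and 72.5 RPKM in differentiated lanes and listed at 0 in undifferentiated lanes, but its first exons overlap the models of Taf10 and Rrp8. The gaining row was listed at 0 in both undifferentiated lanes in 26 members, and the losing row at 0 in both differentiated lanes in 20. At least 1 of these held for 43 members and both for 3, which leaves 71 members with reads given to both promoters. The level classes and the counts of rows at 0 are not set beside those of all genes at the floor. A large share difference itself favours a row at 0 and levels that differ, so nothing is read from the sizes of these counts.

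**Figure D4:**
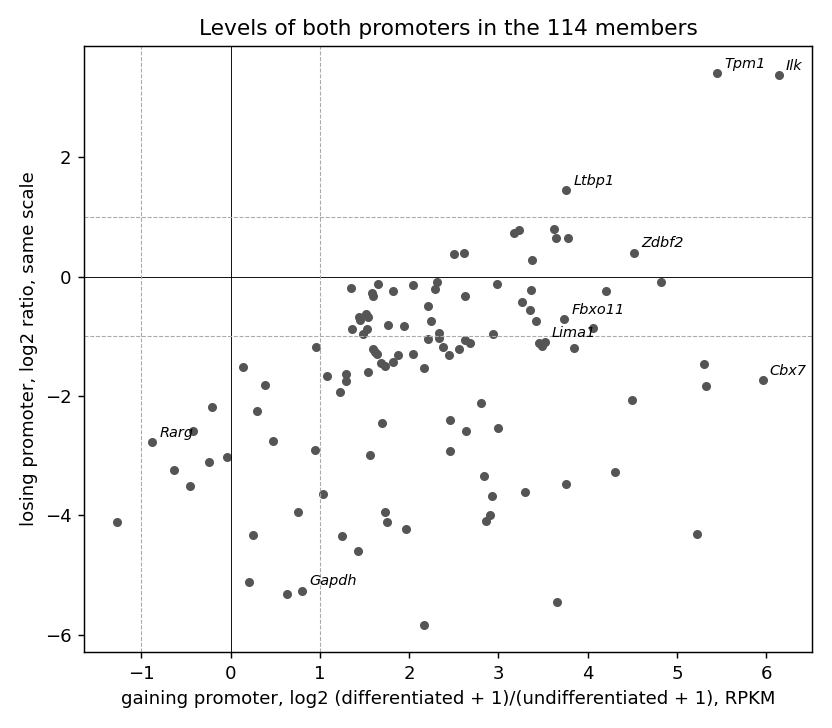
Log2 ratio of differentiated over undifferentiated RPKM, with 1 RPKM added to each, for the gaining (x axis) and the losing promoter (y axis) of the 114 members, 1 point per gene. Dashed lines mark a fold of 2; 52 members lie right of 1 and below -1, and Tpm1, Ilk and Ltbp1 lie above 1 on both axes.

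The summed level of the gene was within 2-fold between the libraries in 74 members (64.9%), against 3612 of all 4579 genes (78.9%). It was at least 2-fold higher in differentiated cells in 25 members (21.9%), against 14.9% of all genes, and at least 2-fold lower in 15 (13.2%), against 6.20%. The median log2 ratio was 0.23 in the members and 0.14 over all genes at the same floor. Shares and sums are made from the same values, so nothing is read from the difference between these percentages. The share of genes that were members was 2.64% where the lower library sum was 5 to 10 RPKM, 2.58% at 10 to 30, 2.43% at 30 to 100 and 1.52% at 100 RPKM or more. It moved more with the number of promoter rows, being 1.35% with 2 rows, 2.76% with 3 or 4, 3.31% with 5 to 7 and 8.75% with 8 or more, where 14 of 160 genes were members.

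The gaining promoter lay upstream of the losing one in 53 members and downstream in 59, of 112 with both on a single chromosome and strand. That is 47.3% and 52.7%, beside 50.2% and 49.8% among the 4479 genes of the floor set that could be placed. The gaining promoter was about as often on either side, in the members as in all genes. In the other 2 members, 9930105H17Rik and Ak3, the table joins rows of different places under a single symbol, and the losing row of Ak3 matches GENCODE transcripts of Ak4 on another chromosome, so these are switches between loci and not between promoters.

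The first exons of the switching promoters lay a median of 11910 bp apart, with a middle range of 4369 to 32842 bp and extremes of 219 and 720503 bp. In all genes at the floor, with the rows of the largest share increase and decrease taken in the same way, the median was 8752 bp. The distance was under 500 bp in 7 members (6.25%, against 9.62% of all), 500 bp to 5 kb in 25 (22.3%, against 28.4%), 5 to 50 kb in 63 (56.2%, against 49.1%) and over 50 kb in 17 (15.2%, against 12.8%). The median was 12928 bp where the gaining promoter lay upstream and 8196 bp where it lay downstream, and over all genes it was 9796 and 7902 bp.

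**Figure D5:**
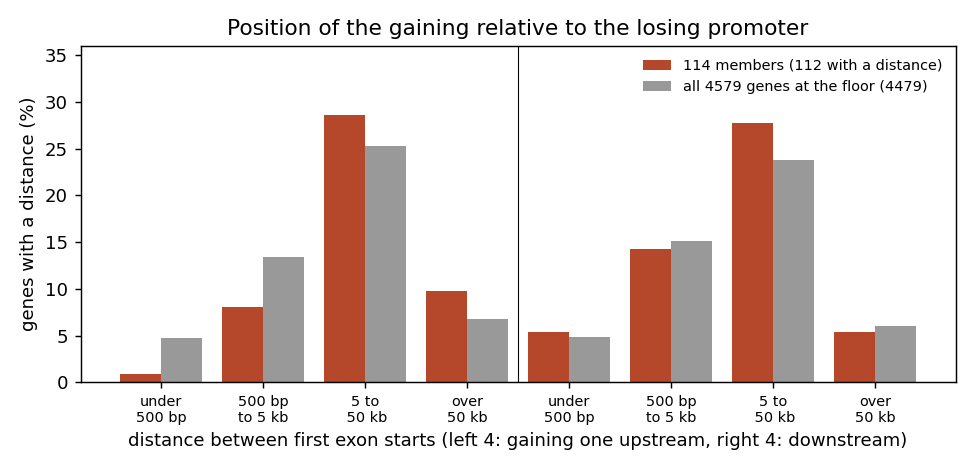
Percentage of genes (y axis) by the distance between the first exon starts of the gaining and losing promoter (x axis classes), with the gaining promoter upstream in the 4 classes on the left and downstream in the 4 on the right. Red bars are the 112 members with a distance and grey bars the 4479 genes at the floor with one; most members lie 5 to 50 kb apart on either side.

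The closest pairs are the least separable. In Pigk, a subunit of the enzyme that attaches GPI anchors, first exons 219 bp apart exchanged places, with the gaining row at 5.7 and 6.38 RPKM in differentiated lanes and listed at 0 in undifferentiated lanes. The losing Pigk row was listed at 0 in differentiated lanes and stood at 2.95 and 3.74 RPKM in undifferentiated lanes. When first exons within 500 bp were merged, the Pigk share difference became -1.18 points. In Myl4, the atrial and embryonic light chain of myosin, first exons 296 bp apart gave gaining shares of 59.5% and 46.1% in differentiated and 0.663% and 0.629% in undifferentiated lanes. Merging turned the Myl4 difference into -3.45 points. The Pigk and Myl4 switches were thus between neighbouring starts that merging joins. Surf2, a gene of the surfeit cluster that shares a divergent promoter with Surf1, had its downstream row, 302 bp away, at 12 and 11.5 RPKM in differentiated and at 8.96 and 7.47 RPKM in undifferentiated lanes. The upstream Surf2 row overlaps the Surf1 model. It was listed at 0 in both differentiated lanes and stood at 5.43 and 6.09 RPKM in undifferentiated lanes. Surf2 has only these 2 rows, and merging first exons within 500 bp joins them, so no Surf2 switch remains after merging.

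Besides Ltbp1 and Ppp2r5c, the longest distance was the 720503 bp of Gm13051, a predicted gene in a cluster of repeated copies on chromosome 4. Its gaining row stood at 15.9 and 15.0 RPKM in differentiated and at 43.4 and 34.0 RPKM in undifferentiated lanes, and its losing first exon overlaps 5 other models. Reads of such copies are uncertain. Over all members, a switching first exon overlapped another gene model of under 1000000 bp in 34 (29.8%), against 1034 of all genes (22.6%). The kit did not mark the strand, so reads there cannot be given to either gene with certainty.

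Both switching rows matched transcripts of GENCODE M21 by identifier in 79 members. In 33 of them both sides had a protein-coding transcript (41.8%, against 36.2% of 3383 matched genes), in 20 only the gaining and in 19 only the losing side did, and in 7 neither. Over the 3383 matched genes these numbers were 970, 953 and 234. Among 25 members with annotated start codons on both sides, no start codon was common to both sides in 12 (48%, against 36.9% of 970 genes), and at least 1 was common in 13. The 12 without a common start codon, named after their values were seen, were Cbx7, Ccrn4l, Fbrsl1, Fbxl17, Hp1bp3, Lima1, Ltbp1, Ndufb5, Rarg, Sirt6, Tpm1 and Zfp207. In these the annotated protein begins at a different place.

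A contrast in CpG content is plainest in Shroom2 and Bckdhb, of which Bckdhb was chosen after its values were seen. Shroom2, an actin-binding protein of epithelial cells, had its upstream promoter at 6.27 and 6.43 RPKM in differentiated and at 1.82 and 1.94 RPKM in undifferentiated lanes, and its downstream row, 124922 bp away, was nearly level at 4.95 and 4.5 RPKM in differentiated and 5.88 and 5.28 RPKM in undifferentiated lanes. The CpG-rich side was the one with the larger share in differentiated cells. Bckdhb, a subunit of the mitochondrial complex that breaks down branched-chain amino acids, had its downstream promoter at 108 and 107.8 RPKM in differentiated and at 21.4 and 16.2 RPKM in undifferentiated lanes. The upstream Bckdhb promoter, 23631 bp away, stood at 2.43 and 1.8 RPKM in differentiated and at 14.6 and 16.3 RPKM in undifferentiated lanes. In Bckdhb it was the CpG-poor side that had the larger share.

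The 200 bases before these starts, from RefSeq windows on GRCm38.p6 with CpG in capitals, hold 21 CpG on the gaining and 0 on the losing side of Shroom2, and 1 on the gaining and 12 on the losing side of Bckdhb. Their places are chrX:152769487-152769686 and chrX:152644549-152644748 on the minus strand, and chr9:83948581-83948780 and chr9:83924937-83925136 on the plus strand.
Shroom2 gaining: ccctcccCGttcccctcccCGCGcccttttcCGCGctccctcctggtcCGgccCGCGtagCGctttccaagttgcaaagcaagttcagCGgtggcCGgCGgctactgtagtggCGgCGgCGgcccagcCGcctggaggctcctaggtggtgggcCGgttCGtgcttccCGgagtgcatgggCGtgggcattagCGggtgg
Shroom2 losing: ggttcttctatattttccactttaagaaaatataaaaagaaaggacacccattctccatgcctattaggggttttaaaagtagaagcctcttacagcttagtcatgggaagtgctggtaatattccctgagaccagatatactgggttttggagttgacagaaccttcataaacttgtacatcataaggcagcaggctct
Bckdhb gaining: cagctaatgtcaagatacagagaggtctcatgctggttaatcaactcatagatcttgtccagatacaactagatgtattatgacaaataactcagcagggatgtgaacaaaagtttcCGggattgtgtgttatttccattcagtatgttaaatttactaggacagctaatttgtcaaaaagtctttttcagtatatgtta
Bckdhb losing: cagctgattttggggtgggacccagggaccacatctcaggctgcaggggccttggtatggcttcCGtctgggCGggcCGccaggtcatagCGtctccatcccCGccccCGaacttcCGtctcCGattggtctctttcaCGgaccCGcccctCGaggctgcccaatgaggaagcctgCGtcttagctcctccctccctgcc

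Windows of 300 bases could be matched to 34 gaining and 39 losing promoters. The ratio of observed to random CpG had a median of 0.76 on the gaining and 0.76 on the losing side, beside 0.80 and 0.82 for all genes at the floor and 0.38 over 32851 RefSeq windows. Of the 7 members with a window of their own on both sides, the gaining promoter had the higher ratio in 3 and the losing in 4. The nuclear receptor element AGGTCA, read on both strands, was found in 4 gaining (11.8%) and 8 losing windows (20.5%), against 12.6% and 11.8% over all genes at the floor and 16.3% of all windows. TATAAA was found in 1 gaining (2.94%) and 3 losing (7.69%) windows, against 6.18% and 6.46% over all genes at the floor and 13.6% of all windows. CCCTC, the core letters of CTCF sites, was found in 25 gaining (73.5%) and 31 losing windows (79.5%), against 75.2% and 76.4% at the floor and 66% of all windows. With so few matched windows these shares are a description, and most lie near those of the genes at the floor. The Rarg gaining window held AGGTCA, though not within the 200 bases printed above, and the losing Rarg window did not hold it. In Bckdhb the losing window held it, within the printed bases. These matches describe letters in a window and nothing about binding.

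By function, the members fell into groups assigned from textbook knowledge after the members were known. No such groups were formed over all 4579 genes, so nothing is read from their sizes or counts. Over all 4579 genes the sum was at least 2-fold higher in differentiated cells in 14.9% and lower in 6.20%. The gaining promoter lay upstream in 50.2% of the genes at the floor that could be placed. Chromatin and transcription regulators formed the largest named group, with 15 members, of which 7 gained upstream and 8 downstream. Besides Cbx7 and Sirt6 it holds the corepressor Ncor1, which unliganded retinoic acid receptors recruit. A losing Ncor1 row was listed at 0 in both differentiated lanes and stood at 12.2 and 16.7 RPKM in undifferentiated lanes, but that first exon overlaps Ttc19, and the gaining Ncor1 row held 41.1% and 42.2% in differentiated and 20.7% and 18.9% in undifferentiated lanes. The Ncor1 sum was 34.6 RPKM in differentiated and 41.1 RPKM in undifferentiated cells. Others of this group, named after their values were seen, were Wiz, a partner of H3K9 methyltransferases, Setd1b, an H3K4 methyltransferase, Psip1, a reader of H3K36 methylation, Chd3, a remodeller of the NuRD complex, and Hp1bp3, a heterochromatin protein. The sum of the group was at least 2-fold higher in differentiated cells in 4, lower in 1 and within 2-fold in 10.

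Of the 12 genes of the cytoskeleton, adhesion and matrix, the sum was at least 2-fold higher in 6, lower in none and within 2-fold in 6, beside 21.9% of the members and 14.9% of the 4579 genes with a higher sum. The group was formed after the members were known, and nothing is read from its count. Their gaining promoter lay downstream in 9 and upstream in 3. Itga6, the laminin-binding integrin alpha 6, had a downstream promoter (chr2:71663565-71663775, plus strand) at 19.1 and 19.5 RPKM in differentiated and at 0.503 and 0.723 RPKM in undifferentiated lanes. Its main promoter, 38580 bp upstream, stood at 21.0 and 20.3 RPKM in differentiated and at 12.7 and 12.9 RPKM in undifferentiated lanes. The added Itga6 row matched no GENCODE transcript. Some fibroblast markers were higher in differentiated cells too and others were not, as given above. The part of fibroblasts in these sums was not tested.

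The 13 signalling genes had 8 gaining promoters upstream and 5 downstream. Besides Rarg and Ppp2r5c they include Inpp5f, an inositol phosphatase gene with imprinted transcripts, whose losing promoter (chr7:135811204-135811308, plus strand) stood at 2.63 and 2.21 RPKM in differentiated and at 8.15 and 9.49 RPKM in undifferentiated lanes. Its upstream promoter, 56363 bp away, was level at 7.27 and 6.61 RPKM in differentiated and 6.65 and 5.81 RPKM in undifferentiated lanes. Inpp5f passed by the losing row alone, which matched only a GENCODE transcript with a retained intron. Others in this group were Rasa1, a brake on Ras, Trpm7, an ion channel with a kinase domain, and Mapk8ip3, a scaffold of JNK signalling, named after their values were seen.

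The 12 RNA processing and binding genes had 8 gaining promoters upstream and 4 downstream, and in 10 the sum was within 2-fold. Beside Srsf4 and Rrp1b they hold Eif4a3, a core protein of the exon junction complex, and Dbr1, the enzyme that opens intron lariats, both named after their values were seen. The Eif4a3 sum was 210.9 RPKM in differentiated and 213.9 RPKM in undifferentiated cells, yet the gaining promoter held 67.2% of it in differentiated and 21.3% in undifferentiated cells. A table of gene sums would not show this difference in Eif4a3 shares. The losing Eif4a3 row, 11013 bp downstream, matched only GENCODE processed transcripts and no RefSeq mRNA. How reads were divided between the rows is not stated, so this switch is uncertain.

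The 10 genes of DNA replication, repair and the cell cycle had sums that were lower in 4, higher in none and within 2-fold in 6. A lower sum was found in 13.2% of the members and 6.20% of the 4579 genes, and nothing is read from the count of this group. They include Rfc5, Ercc1, a subunit of a repair endonuclease, and Cdc20, an activator of the anaphase-promoting complex, the last 2 named after their values were seen. Cdc20 passed by its losing row alone, which held 0.387% in differentiated and 39.5% in undifferentiated cells. Its gaining row, 757 bp downstream, held 30.3% in differentiated and 1.14% in undifferentiated cells. That gaining row matched only a GENCODE transcript with a retained intron. The losing Cdc20 row matched only a transcript marked for nonsense-mediated decay, so this switch is uncertain. The 10 genes of metabolism and mitochondria had 7 gaining promoters downstream and 2 upstream, with sums higher in 4 and lower in 1. The 9 genes of membrane traffic and organelles had 5 upstream and 4 downstream, and the 6 of protein turnover 5 upstream and 1 downstream. The group of zinc finger genes, which also took in the tubby-like gene Tulp4, had 6 members, 2 upstream and 4 downstream. Rab7, a GTPase of late endosomes named after its values were seen, had a gaining share of 54.5% in differentiated and 13% in undifferentiated cells with sums of 115.7 RPKM in differentiated and 101.2 RPKM in undifferentiated cells. The remaining 21 genes were left as other or unknown. Some of their symbols match GENCODE genes of another name and were not regrouped. Examples are 3200002M19Rik with Anapc15, Gltscr2 with Nop53, Ccdc123 with Cep89 and RP23-424B7.1 with Mtcl1.

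Gene lists drawn from textbook knowledge held few members. Of 30 floor genes on a list of genes known for alternative promoters, only Tpm1 was a member (3.33%), against 2.49% of all. The lists are not complete, and Zdbf2, which is imprinted, and Srsf4, a splicing factor, are members that they leave out. Of the 4 listed retinoic acid and retinoid X receptors Rarg was the only member, of the 12 listed imprinted genes Inpp5f, of 47 listed chromatin regulators Cbx7 and Ncor1 (4.26%), and of 37 listed cytoskeletal genes Itga6 and Tpm1 (5.41%). None of the 25 early transcription factors or the 16 splicing and RNA binding factors listed was a member. The median smallest difference of these lists was 1.3 to 2.2 points, far below the 30 points required.

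At the threshold, the differences just inside and outside were alike. Inside, the Pigk losing row had shares of 0% in both differentiated lanes and 30% and 32.6% in undifferentiated lanes. Trit1, an enzyme that modifies tRNA, had a losing row at 1.48% and 27.4% in differentiated and 57.4% and 66.1% in undifferentiated lanes. The Shroom2 gaining row had 55.5% and 56.9% in differentiated and 22.6% and 25.2% in undifferentiated lanes. The differentiated lanes of Trit1 were the least alike of these. Outside, Mgrn1, a ubiquitin ligase, had a row at 63.5% and 60.9% in differentiated and 25.8% and 31.1% in undifferentiated lanes. Wibg, a partner of the exon junction complex, had a row at 68.5% and 49.8% in differentiated and 20.2% and 18% in undifferentiated lanes. E2f3, a cell cycle transcription factor known for its alternative first exons, had a row at 38.5% and 22.2% in differentiated and 75% and 67.7% in undifferentiated lanes. These genes missed the threshold by under 1 point.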

How the data were processed

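RNA was sequenced from 1 differentiated and 1 undifferentiated library in 2 lanes each. The tables deposited by the authors give, per lane and as a library mean, levels of genes, promoters and transcripts, with coordinates on mm9 per the submitters' processing notes. No header names the unit, and the deposited values were read as RPKM because in 7878 single-exon genes 79.8% to 81% of the low values (above 0, with value times length in bp below 1000) were whole multiples of what 1 read is worth, within 0.05 of a read. The sources used here do not state the aligner, the counting method, the annotation or the handling of reads shared between transcripts. Lanes are repeat runs of 1 library and not replicates, so no test or p-value was computed, and the lane spread covers sequencing and read assignment alone.

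Shares of each promoter in its gene's sum were computed in Python 3.11.15 with pandas 2.3.3 and numpy 2.4.6. Gene sums equalled the deposited gene table within 0.1% for 113 of 114 members. Distances run between the 5′ ends of first exons, 1-based on mm9. Promoter sequences were not converted between builds: transcript identifiers were matched to GENCODE M21 and then to RefSeq windows within 50 bp on GRCm38.p6. The share rule was tested on simulated lanes in which each row drew its reads independently, so reads shared between rows were not simulated. Direction and distance were not part of that simulation. The members, gene lists and function groups were chosen with earlier results of these data known. Genes are named with full values if among the 15 members with the largest smallest difference, on a gene list, among the 3 shortest or 3 longest distances, or among the 3 just inside or outside the threshold. Alternatives changed the points, the floor, the scaling, the pseudocount, merging of close first exons and the lanes used. Some items are not reported here.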

Additional observations from a re-analysis of the deposited data

How the results depend on the processing

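The number of members was 211 at 20 points, 47 at 40 points, 231 with a floor of 1 RPKM, 207 on library averages, 72 after adding 1 RPKM to every promoter row (68 of them shared with the 114), 413 on lane 1 alone, 415 on lane 2 alone and, as an alternative chosen after seeing the data, 71 without genes whose gaining or losing row was listed at 0. The number whose sums were at least 2-fold apart, 40 in the main setting, was 73, 16, 97, 70, 25, 130 and 114 in the first 7 of these, and 26 with a floor of 10 RPKM. A floor of 10 RPKM gave 79 members, merging first exons within 500 bp 107 (106 shared), dropping rows below 1 RPKM 112 (109 shared), 1 chromosome and strand 110, and lanes within 10 points, also chosen after seeing the data, 78. Across the alternatives the share of gaining promoters upstream ranged from 41% to 52.2% and the median distance from 11017 to 15185 bp. Scaling to equal RPKM sums shifted all log2 ratios by 0.24 and gave a median of 0.46 in the members, and centring on the median gene shifted them by -0.12. The share differences of Pigk (-1.18 points) and Myl4 (-3.45 points) reversed after merging first exons. Of the 27 named members, 17 stayed past 30 points with 1 RPKM added to every row and 10 did not, namely Rarg, Ltbp1, Garnl3, Ncor1, Inpp5f, Pigk, Myl4, Gm13051, Trit1 and Shroom2, whose smallest differences were 19.5 to 29.4 points. For the named genes, a value counted as moved if it differed from the main value by more than 1 standard deviation over the lane pairings. By this rule 90 share differences stayed and 42 moved, and 39 log2 ratios stayed and 69 moved. A moved value need not lie outside the range of the lanes. The Rarg share difference on lane 1 alone, 33.2 points, counted as moved although it is the lower end of that range. Shares of estimated read numbers were not run, since the promoter table gives no model length. No paired analysis was possible because each condition is 1 library. With 1 library per condition, none of the differences can be set against variation between cultures, and members resting on rows at 0 or on first exons under 500 bp apart are the least certain.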
